A study of Mus musculus with 8 samples.

Results

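The genes of MHC class I antigen presentation and peptide loading were followed in the hippocampus of normal mice and of mice with mucopolysaccharidosis VII, a lysosomal storage disease caused by loss of beta-glucuronidase, which Gusb encodes. The set held 10 genes: H2-K1, H2-D1 and H2-T23 (class I heavy chains), B2m (the shared light chain), Tap1 and Tap2 (the peptide transporter), Tapbp (tapasin) and Psmb8, Psmb9 and Psmb10 (the catalytic subunits of the immunoproteasome). All probe sets whose single gene symbol was one of these were taken, and the probe sets of a gene were kept apart because class I genes are alike in sequence. Of the 10 genes, 9 had such a probe set, with 25 probe sets in all, of 12393 genes and 22626 probe sets measured. The 2 probe sets that list H2-T23 also list another gene, so H2-T23 was not analysed here.

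Each of 8 mice gave 1 Affymetrix array of the right hippocampus, 4 per genotype, with 2 females and 2 males in each. The normal mice were Gusb mps/+, so they carried 1 copy of the mutation, and the mutants were Gusb mps/mps. All 8 mice had the B6.C-H2-Kbm1/ByBir background, so controls and mutants alike carried bm1, a variant of H2-K in which a short coding stretch matches another class I gene, and the bm1 allele was not compared with the usual allele of C57BL/6 mice here. Normal 1 was a female of 38.3 weeks, normal 2 a male of 25.6 weeks, normal 3 a male of 19.6 weeks and normal 4 a female of 14.6 weeks. Mutant 1 was a female of 38.3 weeks, mutants 2 and 3 were males of 25.6 weeks, and mutant 4 was a female of 19.6 weeks. The labels describe both genotypes as caged together and bred from carrier parents that were brother and sister, and they do not say which mice were littermates.

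Class I molecules show peptides from inside the cell to CD8+ T cells and to inhibitory receptors of natural killer cells. The proteasome cuts proteins into peptides, and its immunoproteasome form has Psmb8, Psmb9 and Psmb10 in place of the constitutive Psmb5, Psmb6 and Psmb7. The Tap1 and Tap2 transporter moves the peptides into the endoplasmic reticulum, where tapasin helps load them on a heavy chain paired with B2m. In the brain, microglia and endothelial cells are known to express class I genes, neurons carry lower amounts, and interferons raise most genes of the pathway.

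The values are log2 RMA expression values, and differences are mutant minus normal on that scale, so that 1 is a doubling. No member probe set passed the threshold of adjusted p 0.05 (limma, Benjamini-Hochberg adjustment over all 22626 probe sets), where 20 probe sets of the array did (0.0884%, with 18 higher in mutants, 0.0796%). The smallest adjusted p among the members was 0.169. The mutant mean was higher in 18 of the 25 probe sets and lower in 7, where 10655 of all 22626 were higher. The median difference was 0.45 against -0.012 over all probe sets. At an unadjusted p under 0.05, 12 member probe sets were higher in mutants, against 3.14% of all probe sets, and 0 were lower, against 2.81%. In 8 of the 25 every mutant lay above every normal mouse, against 1.81% of all probe sets, and in 0 every mutant lay below, against 1.75%. H2-K1, H2-D1 and B2m gave 3, 3 and 2 of the 12 probe sets, and 2 each of the 8. Probe sets of a gene, and those shared between class I genes, can read the same transcripts. These counts are therefore not of independent members. With the variance trend and robust options of limma, 11 member probe sets had an unadjusted p under 0.05 and 0 passed after adjustment.

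Taken as 1 value per gene, the probe set with the highest mean was higher in mutants for all 9 measured genes, by 0.16 to 0.98 with a median of 0.66. The groups did not overlap in 5 of these 9 genes, and the share of all genes taken this way is not given here. Over all probe sets, the mutant mean was higher in 10655 of 22626, and mutants lay above without overlap in 1.81%. By the mean of a gene's probe sets, B2m differed by 1.05, H2-K1 by 0.60, H2-D1 by 0.29, Tapbp by 0.30 and Tap1 by -0.03. In bulk tissue, more cells of a type and more RNA per cell cannot be told apart.

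**Figure D1:**
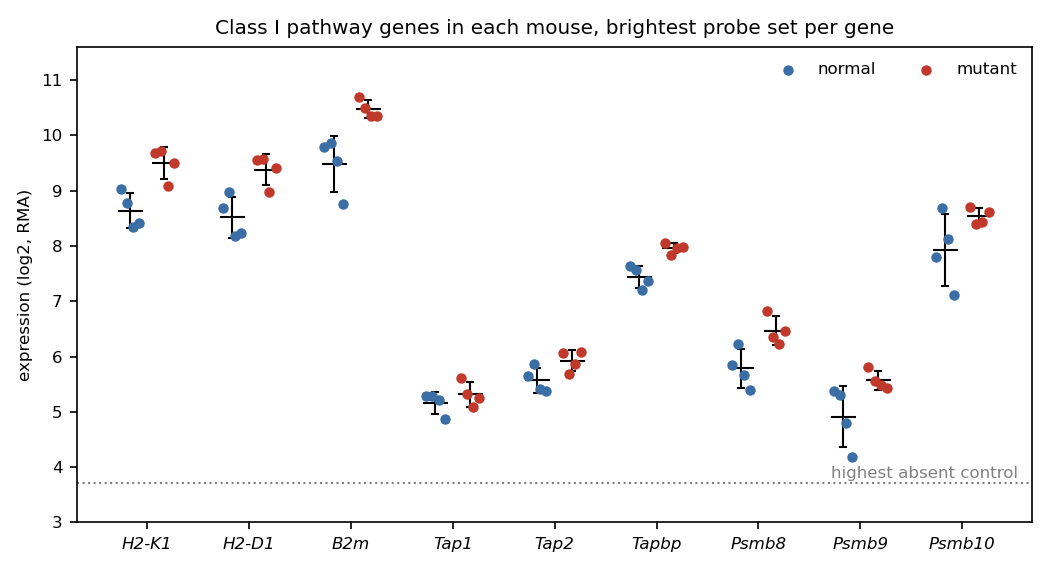
Expression (log2, RMA) of the 9 measured genes in each mouse, with the probe set of the highest mean for each gene. Points are mice (blue normal, red mutant), horizontal bars are group means and whiskers are SD (n = 4), and the dotted line is the highest value of a bacterial transcript absent from the samples (3.72). The mutant mean is higher in each of the 9 genes, and normal 4 lies lowest in B2m, Tap1, Tap2, Psmb8, Psmb9 and Psmb10.

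The RefSeq promoter windows of the class I set (GRCm38.p6) were read for short sequence motifs. The part of these motifs in the expression values was not tested. The table held the 250 bases before the transcription start for 9 of the 10 genes, all but Tap2. Class I promoters are known for a kappa B enhancer, an interferon response element and a cyclic AMP response element-like site bound by the complex that contains NLRC5 and RFX proteins. The windows of the heavy chains and of B2m, and the interval between Psmb9 and Tap1, which start from a shared promoter in opposite directions, are shown 5' to 3' on the gene's strand (on the plus strand for the shared interval). Capitals mark the motif matches.
H2-K1, chr17:34000348-34000597, minus strand: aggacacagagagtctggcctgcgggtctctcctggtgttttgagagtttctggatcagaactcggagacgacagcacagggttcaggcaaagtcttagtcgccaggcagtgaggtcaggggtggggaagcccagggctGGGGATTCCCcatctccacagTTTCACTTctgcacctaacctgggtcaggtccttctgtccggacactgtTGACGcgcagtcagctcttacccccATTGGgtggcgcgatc
H2-D1, chr17:35262844-35263093, plus strand: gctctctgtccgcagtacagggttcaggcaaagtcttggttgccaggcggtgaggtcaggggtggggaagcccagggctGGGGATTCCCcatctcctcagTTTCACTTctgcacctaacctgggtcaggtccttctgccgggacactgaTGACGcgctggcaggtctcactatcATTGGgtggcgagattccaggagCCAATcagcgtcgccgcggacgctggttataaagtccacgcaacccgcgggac
B2m, chr2:122147437-122147686, plus strand: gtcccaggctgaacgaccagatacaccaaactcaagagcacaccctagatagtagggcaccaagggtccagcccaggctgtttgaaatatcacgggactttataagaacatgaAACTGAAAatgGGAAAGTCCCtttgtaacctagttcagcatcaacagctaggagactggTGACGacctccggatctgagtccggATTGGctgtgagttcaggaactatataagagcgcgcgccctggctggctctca
Between Psmb9 and Tap1, chr17:34187331-34187555, plus strand: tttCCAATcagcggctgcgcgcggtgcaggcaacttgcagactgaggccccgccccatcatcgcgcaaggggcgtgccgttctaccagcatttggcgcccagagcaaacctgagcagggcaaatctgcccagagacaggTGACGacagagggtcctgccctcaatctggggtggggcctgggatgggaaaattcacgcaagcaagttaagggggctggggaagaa

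The motifs were searched on both strands by their letters, and in the printed sequences no match overlapped another. The interferon regulatory factor core AANNGAAA was found in H2-K1, H2-D1, H2-T23 and B2m (4 of 9 genes), and in 21.3% of all 32851 promoter windows of this length. The kappa B motif, GGGNN followed directly by TTNCC, was found in H2-K1, H2-D1 and B2m (3 of 9), and in 4.11% of all windows. The CCAAT box was found in 7 of 9, and in 33.8% of all windows. The core TGACG of the cyclic AMP response element was found in H2-K1, H2-D1, B2m, Tap1 and Psmb9 (5 of 9), and in 17.8% of all windows. Tap1 and Psmb9 share 1 CCAAT box and 1 TGACG between them, and each is counted for both genes. The H2-K1 and H2-D1 windows were alike: in their alignment 166 of 190 bases were identical (87.4%). A match is a stretch of letters and not a measured binding site.

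H2-K1 encodes the K heavy chain, the gene that carries the bm1 variant here, and it had 4 probe sets, each with the suffix x_at that marks probes shared with other transcripts. The probe set with the highest mean, 1425336_x_at, read 9.03, 8.77, 8.35 and 8.41 in normals 1 to 4 and 9.68, 9.72, 9.09 and 9.51 in mutants 1 to 4. The 4 mutants all lay above the 4 normals, with mutant 3 only 0.06 above normal 1. The means were 8.64 ± 0.32 in normal and 9.50 ± 0.29 in mutant mice (SD, n = 4), a difference of 0.86 ± 0.20 (SE) or 1.81-fold, with adjusted p = 0.404 (limma).

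The second H2-K1 probe set, 1451931_x_at, read 5.91, 6.11, 5.89 and 5.91 in normals 1 to 4 and 6.82, 6.66, 6.42 and 6.94 in mutants 1 to 4. These groups were 0.31 apart at their nearest mice, and the normals other than normal 2 lay within a narrow range. The difference was 0.75 ± 0.13 (95% interval 0.45 to 1.06), and its adjusted p of 0.169 was the smallest of the members. The third, 1427746_x_at, read 4.99, 5.30, 4.61 and 4.84 in normals and 5.87, 5.42, 5.22 and 5.65 in mutants, so mutant 3 lay within the range of the normals. Its difference was 0.60 ± 0.19 with adjusted p = 0.685 (limma). The fourth, 1450534_x_at, had means of 3.63 and 3.79, at the level of the absent bacterial controls, and a difference of 0.17 ± 0.15.

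H2-D1 encodes the D heavy chain and had 9 probe sets, 7 of them named x_at. The one with the highest mean, 1425545_x_at, read 8.68, 8.97, 8.18 and 8.24 in normals 1 to 4 and 9.55, 9.57, 8.97 and 9.42 in mutants 1 to 4. Normal 2 and mutant 3 differed by only 0.0031, so the groups touched without crossing. The means were 8.51 ± 0.37 and 9.38 ± 0.28 (SD, n = 4), a difference of 0.86 ± 0.21 with adjusted p = 0.456 (limma).

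H2-D1 probe set 1451784_x_at read 6.22, 6.66, 6.32 and 6.21 in normals and 7.40, 7.23, 6.90 and 7.02 in mutants, with a gap of 0.24 between the groups. Its difference was 0.78 ± 0.15 or 1.72-fold, with adjusted p = 0.238 (limma). H2-D1 probe set 1451683_x_at read 4.52, 5.19, 4.57 and 4.83 in normals and 6.10, 5.65, 5.04 and 6.19 in mutants. Here mutants 1 and 4, both females, lay above all others and mutant 3 lay below normal 2. The difference was 0.97 ± 0.27 with adjusted p = 0.569 (limma).

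The other H2-D1 probe sets did not share this pattern. Probe set 1426324_at read 5.07, 5.27, 4.73 and 5.09 in normals and 5.22, 5.93, 5.66 and 5.14 in mutants, a difference of 0.45 ± 0.20, and here the male mutants were the high ones. Probe sets 1452544_x_at and 1427651_x_at, with means above the absent controls on all 8 arrays, differed by -0.13 ± 0.13 and -0.08 ± 0.12, with 95% intervals of -0.43 to 0.18 and -0.35 to 0.18. The probe sets 1425614_x_at, 1450170_x_at and 1451934_at had means no higher than the absent controls and differed by -0.03, -0.22 and -0.03. Over both heavy chains, then, 4 of 13 probe sets had groups that did not overlap, with mutants higher (1.81% of all probe sets). Their differences were 0.75 to 0.86, and the other 9 ranged from -0.22 to 0.97. As 11 of the 13 carry x_at, their signal can include other class I transcripts, and the share of each gene in it is not known here.

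B2m, the light chain that every class I heavy chain needs to reach the cell surface, had 2 probe sets and the largest genotype difference per gene. Probe set 1452428_a_at read 9.79, 9.86, 9.54 and 8.76 in normals 1 to 4 and 10.69, 10.50, 10.35 and 10.35 in mutants 1 to 4. The mutants lay close together and 0.49 above the highest normal, while normal 4, the youngest mouse, lay well below the other normals. The means were 9.49 ± 0.50 and 10.47 ± 0.16 (SD, n = 4), a difference of 0.98 ± 0.24 or 1.98-fold, with adjusted p = 0.424 (limma). Probe set 1449289_a_at read 9.74, 9.63, 9.30 and 8.37 in normals and 10.58, 10.55, 10.17 and 10.18 in mutants. The order of the mice was nearly the same, and the difference was 1.11 ± 0.29 or 2.16-fold, with adjusted p = 0.516 (limma). Without normal 4, the differences were 0.74 and 0.82.

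Tap1 and Tap2 form the transporter that carries peptides into the endoplasmic reticulum. Tap1 probe set 1416016_at read 5.28, 5.29, 5.21 and 4.87 in normals and 5.61, 5.32, 5.08 and 5.25 in mutants. The groups overlapped, with mutant 3 below 3 of the 4 normals, and the difference was 0.16 ± 0.15 with a 95% interval of -0.19 to 0.50. The second Tap1 probe set, 1448177_at, read 4.15, 4.31, 4.14 and 3.93 in normals and 3.94, 3.83, 3.97 and 4.01 in mutants, a difference of -0.20 ± 0.11 in the other direction. The remaining Tap1 probe sets, 1420274_at and 1449803_x_at, were below the highest absent control on all arrays. Tap2 had 1 probe set, 1453913_a_at, which read 5.65, 5.86, 5.41 and 5.37 in normals and 6.06, 5.68, 5.86 and 6.09 in mutants. Mutant 2 lay within the range of the normals, and the difference was 0.35 ± 0.15 with adjusted p = 0.83 (limma).

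Tapasin, the chaperone that bridges the transporter and the heavy chain, had 2 probe sets with unlike values. Tapbp probe set 1421812_at read 7.63, 7.56, 7.20 and 7.37 in normals 1 to 4 and 8.05, 7.84, 7.96 and 7.99 in mutants 1 to 4. The 4 mutants lay within a narrow range, 0.21 above the highest normal. The means were 7.44 ± 0.20 and 7.96 ± 0.09 (SD, n = 4), a difference of 0.52 ± 0.12 or 1.43-fold, with adjusted p = 0.416 (limma). Tapbp probe set 1450378_at read 5.20, 6.13, 6.58 and 6.60 in normals and 6.59, 6.0, 6.07 and 6.17 in mutants, a difference of 0.08 ± 0.31. Normal 1 was the low one there, and without it the difference was -0.23. The array of normal 1 also had a 3 prime minus 5 prime control value of 3.58, against 0.22 to 0.75 on the other 7 arrays, and its part in this value was not tested.

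**Figure D2:**
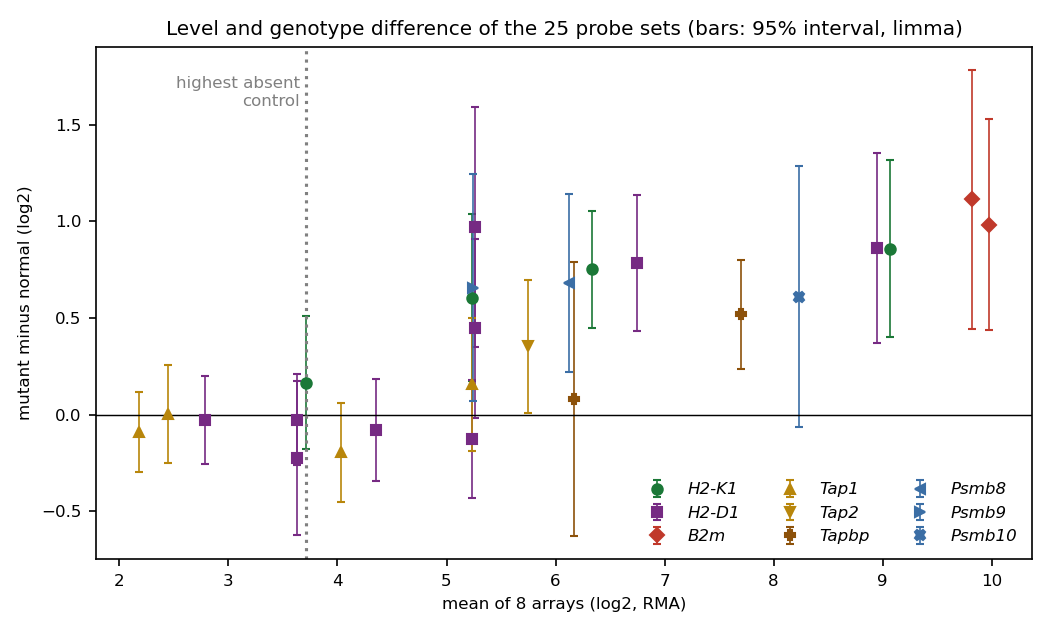
Mean over the 8 arrays (log2, RMA, x axis) and difference of mutant minus normal (log2, y axis) for all 25 member probe sets, coloured and shaped by gene. Bars are 95% intervals from limma, and the dotted line is the highest absent control (3.72). The 6 probe sets no higher than the absent controls differ by -0.22 to 0.17, and the heavy chain probe sets spread from -0.22 to 0.97.

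Psmb8, Psmb9 and Psmb10 encode the immunoproteasome subunits, which change how the proteasome cuts proteins and favour peptides that bind class I. Psmb8 (1422962_a_at) read 5.85, 6.23, 5.66 and 5.40 in normals and 6.83, 6.35, 6.23 and 6.47 in mutants. Normal 2 and mutant 3 crossed by 0.0050, the only overlap, and the difference was 0.68 ± 0.20, with adjusted p = 0.630 (limma). Psmb9 (1450696_at) read 5.38, 5.30, 4.79 and 4.19 in normals and 5.81, 5.55, 5.48 and 5.44 in mutants. The groups did not overlap, normal 4 was far below the rest, and the difference of 0.66 ± 0.26 (adjusted p = 0.809, limma) was 0.41 without that mouse. Psmb10 (1448632_at) read 7.80, 8.68, 8.13 and 7.12 in normals and 8.71, 8.40, 8.43 and 8.62 in mutants. Normal 2 lay among the mutants, and the difference of 0.61 ± 0.29 (adjusted p = 0.872, limma) was 0.34 without normal 4.

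The constitutive subunits that these replace had smaller differences in the same mice, though none of these differences passed the threshold and the contrast between the forms was not tested. Psmb5 differed by 0.30 ± 0.17, Psmb6 by 0.28 ± 0.28 and Psmb7 by 0.15 ± 0.17. Over the 14 genes of the constitutive core, 13 had a higher mutant mean, 0 had an unadjusted p under 0.05, and the median difference was 0.20. The smallest p-values were those of Psmb5 and of Psmb2 (0.33 ± 0.20), with adjusted p of 0.896 and 0.898 (limma). The list mean was lowest in normal 4, at 9.55, and 10.1 to 10.4 in the other 7 mice, so normal 4 was low in both forms of the proteasome.

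**Figure D3:**
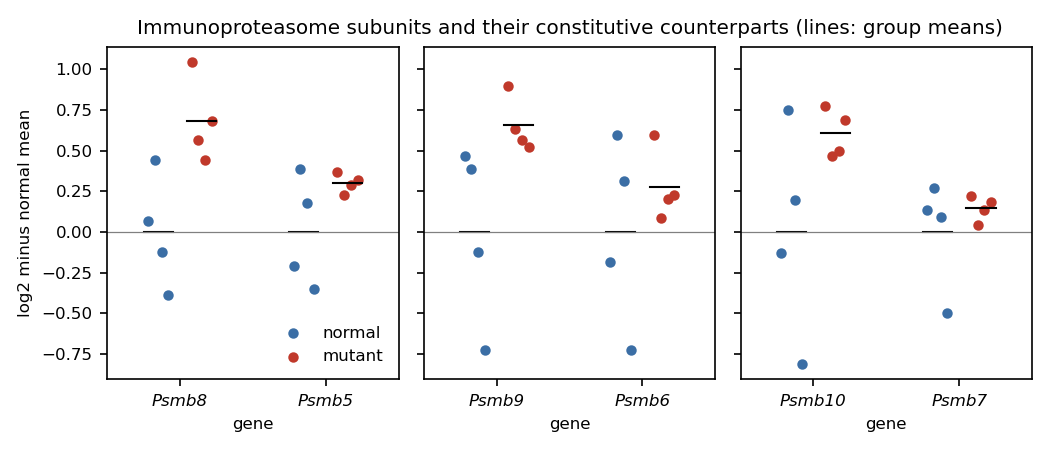
Log2 value minus the mean of the 4 normal mice for each immunoproteasome subunit (left of each pair) and its constitutive counterpart (right). Points are mice (blue normal, red mutant), lines are group means (n = 4). Mutant means are 0.61 to 0.68 above the normals for the immunoproteasome subunits and 0.15 to 0.30 for the counterparts, and normal 4 is the lowest point in each subunit.

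The related lists had smaller median differences than the class I set, with no test of that contrast. In the list of class I partners (chaperones, trimming peptidases and proteasome activators), 13 of 16 genes were measured, 8 had a higher and 5 a lower mutant mean, 0 passed adjustment and the median difference was 0.06. The smallest p-values were those of Erap1, which trims peptides in the endoplasmic reticulum (0.50 ± 0.14, adjusted p = 0.541, limma), and Psme1, a subunit of the interferon-inducible proteasome activator (0.59 ± 0.19, adjusted p = 0.706). Erap1 read 4.29, 4.38, 3.88 and 4.05 in normals and 4.70, 4.72, 4.49 and 4.69 in mutants, with no overlap. Psme1 read 8.43, 8.69, 7.87 and 8.17 in normals and 9.12, 8.72, 8.73 and 8.95 in mutants, also with no overlap. Mutants lay above without overlap in 2 of the 13 genes, against 1.81% of all probe sets. By contrast, the general chaperones of the loading complex stayed near 0: calreticulin (Calr) differed by -0.09 ± 0.11, calnexin (Canx) by 0.06 ± 0.23 and Pdia3 by -0.07 ± 0.19. These 3 were chosen after their values were seen.

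Among other class I and class I-like genes, 13 of 24 were measured, 7 higher and 6 lower, with a median difference of 0.07 and 0 past adjustment. The smallest p-values belonged to Mr1, which presents microbial metabolites to T cells (0.79 ± 0.21, adjusted p = 0.519, limma), and Hfe, a class I-like regulator of iron uptake that binds B2m (0.53 ± 0.21, adjusted p = 0.809). Mr1 read 6.04, 5.37, 5.44 and 6.13 in normals and 6.79, 6.55, 6.25 and 6.56 in mutants, with no overlap. In this list mutants lay above without overlap in 2 of the 13 genes, against 1.81% of all probe sets. Of the MHC class II list 10 of 13 genes were measured, 6 higher and 4 lower, with a median of 0.07. Its smallest p-values were those of cathepsin S (Ctss, 0.90 ± 0.17, adjusted p = 0.225, limma) and the thiol reductase Ifi30 (0.82 ± 0.22, adjusted p = 0.555), both lysosomal proteins. Cd74, the invariant chain of class II, differed by 0.12 ± 0.13, and it too was chosen after its values were seen.

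Of the interferon-stimulated genes 23 of 29 were measured, 19 higher and 4 lower, with a median of 0.17. Over all probe sets, 10655 of 22626 were higher. At an unadjusted p under 0.05, 4 genes were higher and 0 lower, against 3.14% and 2.81% of all probe sets. Irgm1, an interferon-induced GTPase, read 6.35, 6.13, 6.33 and 6.39 in normals and 6.90, 6.94, 6.94 and 6.81 in mutants, with a difference of 0.60 ± 0.10 and adjusted p = 0.150 (limma). Ifit3, an interferon-induced antiviral protein, read 7.07, 7.04, 6.70 and 6.97 in normals and 8.21, 7.57, 7.31 and 7.47 in mutants, with a difference of 0.69 ± 0.20 and adjusted p = 0.592 (limma). Neither gene had overlapping groups, but both were picked for the smallest p-values of the list, so this is no separate check. Mutants lay above without overlap in 3 of the 23 genes, against 1.81% of all probe sets.

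Receptors of class I and genes of cytotoxic lymphocytes, the cells that read class I, gave 14 measured genes of 17, 4 higher and 10 lower, with a median of -0.03 and 0 at an unadjusted p under 0.05. Their smallest p-values were those of Pirb, a class I receptor of myeloid cells and neurons (0.26 ± 0.12, adjusted p = 0.850, limma), and Cd8b1, a chain of the CD8 coreceptor (-0.20 ± 0.13, adjusted p = 0.900). In 7 of the 14 the mean was no higher than the absent controls. Cd8b1 lay between 2.94 and 3.52 over the 8 mice.

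**Figure D4:**
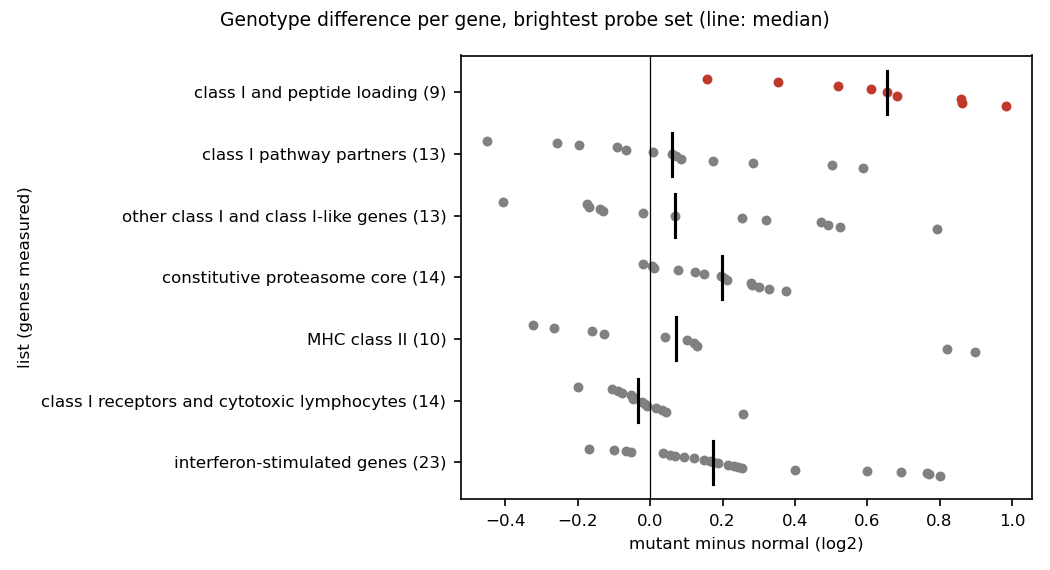
Difference of mutant minus normal (log2, x axis) for each measured gene of the class I set (red) and of 6 related lists (grey), with the probe set of the highest mean per gene. Vertical bars are list medians, which are 0.66 for the class I set, -0.03 for the class I receptors and cytotoxic lymphocytes and 0.06 to 0.20 for the other lists.

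Cell type markers also differed between the genotypes in these samples. Of 15 measured microglial markers 10 were higher and 5 lower. Of these 15, 2 passed the threshold: Cd68 by 2.08 (adjusted p = 0.037) and Mpeg1 by 2.07 (adjusted p = 0.003, limma). Over all probe sets, 0.0796% passed and were higher in mutants. The 5 lower ones were P2ry12 (-0.61), Itgam (-0.37), Tmem119 (-0.25), Cx3cr1 (-0.23) and Csf1r (-0.19), with 0 at an unadjusted p under 0.05. The mean of the microglial list was 7.18 to 7.73 in normal and 8.13 to 8.49 in mutant mice. Of 10 astrocyte markers 9 were higher and 1 lower, with a median difference of 0.24, and Gfap (2.27) was past the threshold. The astrocyte list mean was 8.86 to 9.24 in normal and 9.45 to 9.54 in mutant mice. The endothelial list mean was 5.91 to 6.61 in normal and 6.37 to 6.75 in mutant mice, lowest in normal 4. The meningeal list mean was 5.61 to 6.46 and 6.49 to 7.27. The choroid plexus list mean was 4.40 to 5.30 and 5.22 to 8.10, with mutants 1 and 3 at 8.10 and 7.17. All measured genes of the endothelial, meningeal and choroid plexus lists had higher mutant means. Their median differences were 0.24, 0.82 and 1.70. The oligodendrocyte list went the other way: all 8 measured genes had a lower mutant mean, and 0 passed adjustment. Of these genes, 6 had an unadjusted p under 0.05 and no overlap, against 2.81% and 1.75% of all probe sets. The oligodendrocyte list mean was 10.3 to 10.8 in normal and 9.24 to 9.92 in mutant mice. Of 10 neuronal markers 7 were lower and 3 higher, 0 at an unadjusted p under 0.05, and the list mean was 9.41 to 9.99 and 9.53 to 9.83. Without mutants 1 and 3, B2m (1452428_a_at) differed by 0.93, H2-K1 (1425336_x_at) by 0.97 and Tapbp (1421812_at) by 0.47, against 0.98, 0.86 and 0.52 with all mice. The other Tapbp probe set, 1450378_at, changed direction without these mice. Without mutants 2 and 4 instead, the same B2m and H2-K1 probe sets differed by 1.03 and 0.74. These mice were left out after the values were seen. The part of the cell types above in the class I values was not tested.

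The tissue label was set against markers of hippocampus and its neighbours. The hippocampal field list averaged 4.95 to 7.47, highest in mutant 3, and the thalamic and habenular list 6.71 to 10.04. The latter mean was 9.11, 9.39, 7.67 and 7.34 in normals 1 to 4. In mutants 1 to 4 it was 8.48, 10.04, 6.71 and 9.93, so it varied within each genotype. The striatal list differed with the genotype: all 5 measured genes had a lower mutant mean at an unadjusted p under 0.05, against 2.81% of all probe sets. The median difference was -2.37, and 0 passed adjustment, against 0.0884% of all probe sets. Its mean was 9.80, 6.87, 10.1 and 8.94 in normals 1 to 4 and 7.09, 6.27, 6.18 and 6.60 in mutants 1 to 4, so the marker levels of a neighbouring region moved with the comparison, and only normal 2 lay in the range of the mutants. The part of the dissected region in the class I values was not tested. Gusb probe set 1448124_at was 5.40 to 6.56 in normal and 4.36 to 4.71 in mutant mice, in the direction of the labels, while 1430332_a_at overlapped. Array medians lay between 6.09 and 6.17.

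Age differed between the groups, since the youngest mouse was normal and mutants were at least 19.6 weeks old. Ordered by age, the value of the normals was higher at each step of age in 2 of the 25 probe sets, B2m 1449289_a_at and Psmb9, a share near that of all probe sets (8.12%). Normal 4 had the lowest value of the 4 normals in 12 of 25 (28.6% of all probe sets) and the lowest of all 8 mice in 8 of 25 (19.2%). Some mice shared age and sex. The mutant female of 38.3 weeks was above the normal female of that age in 22 of 25 probe sets (46.4% of all probe sets), with a median difference of 0.42 against -0.036 over all probe sets. That female is normal 1, whose array had the high 3 prime minus 5 prime control value of 3.58, and the part of RNA quality in this count was not tested. At 25.6 weeks, mutant 2 was above the normal male in 14 of 25 (47.2% of all probe sets; median 0.12) and mutant 3 in 12 of 25 (45.8%; median -0.0050), shares near those of all probe sets. In 8 of the 25 probe sets every mutant lay above every normal mouse, so both males had to lie above normal 2. The differences there are no separate check. They were 0.50 to 0.92 in both B2m probe sets, and 0.27 and 0.40 in Tapbp 1421812_at. In Psmb10 both males lay below normal 2, by 0.28 and 0.25. These are single mice, so the values carry no test.

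**Figure D5:**
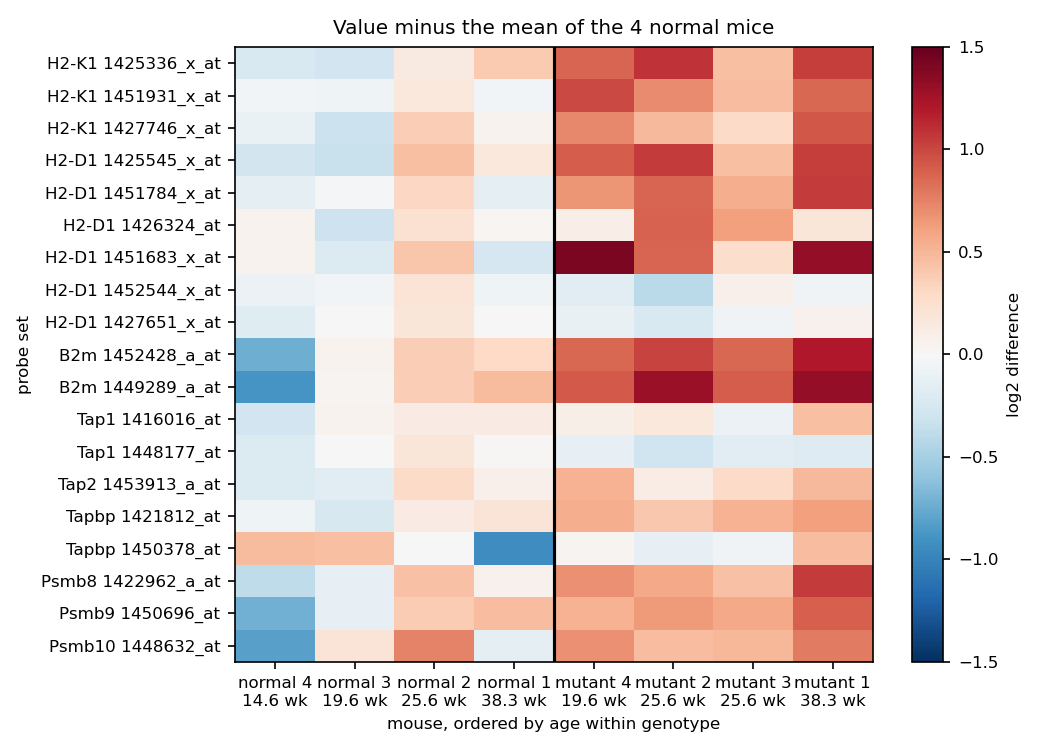
Log2 value minus the mean of the 4 normal mice for the 19 member probe sets with a mean above the absent controls, in each mouse, ordered by age in weeks within genotype (normals left of the line). Red is above and blue below the normal mean. B2m is red in each mutant, and normal 4 is blue in B2m, Psmb8, Psmb9 and Psmb10.

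The genotype difference was larger in females than in males in 22 of the 25 probe sets (52.2% of all probe sets). It was larger in females in 23 without normal 1 (52.2%), and in 16 without normal 4 (49.1%), so the count rested in part on that mouse. Within females the mutant mean was higher in 21 (49.1%) and within males in 15 (47.5%). No interaction of genotype and sex passed adjustment (0% of all probe sets did), and 2 members had an unadjusted p under 0.05, against 10.5% of all probe sets. For Psmb10 the difference was 1.21 in females and 0.01 in males, an interaction of 1.19 ± 0.39 (adjusted p = 0.410, limma). For H2-D1 1451683_x_at it was 1.47 in females and 0.47 in males, an interaction of 1.01 ± 0.41 (adjusted p = 0.473, limma). Female minus male differences, with genotype in the fit, lay between -0.35 and 0.30, and 0 of the 25 passed at adjusted p 0.05 (0.0354% of all probe sets) or had an unadjusted p under 0.05 (2.45%).

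Genes whose pattern over the 8 mice was most like that of B2m and H2-K1 were found among 7072 other genes by the root mean square difference of values centred on each gene's mean, a description with no test. For B2m (1452428_a_at, whose own spread was 0.59) they were Ifi30 at 0.14, Pycard at 0.16, Zbtb11os1 at 0.17, Ctss at 0.18 and Hacd2 at 0.18, and the median over all candidates was 0.63. Pycard, the inflammasome adaptor ASC, read 6.38, 6.19, 5.82 and 5.02 in normals and 6.71, 6.84, 6.62 and 6.46 in mutants, with the same low value in normal 4. For H2-K1 (1425336_x_at, own spread 0.50) they were Cpq at 0.10, Chil1 at 0.14, Pltp at 0.15, Il10rb at 0.16 and Ctsh at 0.17, with a median of 0.54. Cpq, a secreted carboxypeptidase, read 7.35, 7.13, 6.54 and 6.69 in normals and 7.94, 7.75, 7.24 and 7.69 in mutants, and like H2-K1 it was lowest among the mutants in mutant 3. The B2m list held 2 genes also on the MHC class II list, Ifi30 and Ctss.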

How the data were processed

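Hippocampal RNA of 8 mice was measured on 1 Affymetrix array each. Each deposited value is the log2 expression of a probe set. Per the submitters' processing notes the tools were RMA and GCOS 1.4. The build behind the probe sets is not given in the sources used here, and scanner files were not analysed here. Of 22690 probe sets, 64 controls were left out. Of the other 22626, 20380 had 1 gene symbol, 691 several and 1555 none.

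The genotypes were tested over all 22626 probe sets by lmFit and eBayes of limma 3.58.1 (R 4.3.3), with Benjamini-Hochberg adjustment and a threshold of 0.05. The level of absent transcripts is the highest value (3.72) of 27 bacterial control probe sets. Sex was tested with genotype in the fit. In simulated data of this size, 100 probe sets were given a log2 change of 1 and 100 a change of 2. Of these, 53% and 89% were recovered, with 9 false calls. The noise was drawn separately for each probe set, so these shares need not hold for the real arrays. Each mouse is a separate animal, and their number limits the precision.

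The members and lists were chosen with earlier results of these data known. All member probe sets are named, with the 2 genes of smallest p in each list and the 5 genes most like B2m and H2-K1. In lists, a gene is its probe set of the highest mean. Alternatives changed the filter, probe sets, scaling, variance model, covariates, blocks and mice. Motifs were searched in RefSeq promoters (GRCm38.p6), and windows were aligned with Biopython 1.88.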

Additional observations from a re-analysis of the deposited data

Results flagged for a closer look

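In H2-K1 1451931_x_at, the value of normal 2 was 6.11, and the other 3 normal mice lay between 5.89 and 5.91, so the gap took up 0.906 of the range of the group. Chance marks about 1 in 20 such groups, and 38 groups were looked at. Without normal 2, the genotype difference of this probe set was 0.80 in place of 0.75.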

How the results depend on the processing

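No member probe set passed the threshold of adjusted p 0.05 in any of the 27 alternatives, and the lowest adjusted p was 0.051, for H2-K1 1451931_x_at with array weights (its other alternatives gave up to 1.00). The median difference of the members, 0.45, was 0.31 in mice matched for age and sex, 0.59 in the mice with the higher animal numbers of the labels and 0.29 without normals 1 and 4, and 0.34 to 0.52 with 1 mouse left out. The number of probe sets of the whole array past the threshold, 20, was 6 to 27 with 1 mouse left out. Of the 19 members above the absent controls, 15 kept their direction in all alternatives run. H2-D1 1427651_x_at turned to 0.011 with the higher animal numbers and 0.0038 without mutants 2 and 4, and H2-D1 1452544_x_at to 0.031 and 0.021. Tap1 1416016_at gave -0.032 as the mean of the gene's probe sets. Tapbp 1450378_at gave -0.13 with array weights, -0.47 with the higher animal numbers, -0.042 without mutants 1 and 3, -0.15 without normals 1 and 4, and -0.23 to 0.24 with 1 mouse left out. Psmb10 gave 0.14 without normals 1 and 4. The cause was not tested. The choices that leave out 2 mice together, or a normal female in the count by sex, were made after seeing the data. No paired analysis was possible because the labels give no replicate numbers and pair only some mice by age and sex. The fits that could be made with age, the animal number series or the stratum of matched age and sex as a block called no member.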
